A study of Mus musculus with 6 samples.

Results

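The genes described here are 10 genes of heart muscle measured in mouse whole lung: Myl7, Myl4, Sln, Nppa, Tnni3, Tnnt2, Myh6, Actc1, Pln and Mb. Every probe set annotated to one of these symbols alone was taken, which gave 18 probe sets for the 10 genes, out of 45037 probe sets and 18193 genes on the array. The genes were chosen by their measured difference between IL4R KO and WT lungs on these same arrays, which was known for most of them. The difference of Nppa between transgenic and IL4R KO lungs was also known. The IL4R KO against WT values, and those of Nppa between transgenic and IL4R KO lungs, are therefore given as a description. For Nppa, transgenic minus WT follows from these differences, so it is not independent of the choice either. Counts that include them were shaped by the choice, and nothing is read from them.

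The lungs came from adult BALB/c mice of 3 groups. IL4R KO + SMP8-IL4R mice lacked the IL4R gene (IL4R -/-) and carried 1 copy of a transgene (SMP8-IL4R +/-) with the SMP8 promoter in front of the receptor gene, a promoter described by the submitters as smooth muscle specific. They are called transgenic below. IL4R KO mice were IL4R -/- without the transgene, and WT mice had the receptor in all cell types. The receptor chain is the signalling part of the receptors for IL-4 and IL-13, cytokines of allergic airway inflammation. Every group was given IL-13 into the trachea, 2 to 3 micrograms once a day for 7 days, and the tissue was collected 24 hours after dosing ended, so no group was without the cytokine. Each group had 2 arrays, and each array measured an RNA pool from 4 mice. The p-values below thus measure the spread between 2 pools per group. Values are log2 intensities, on which a difference of 1 is a doubling, and levels of different genes are not compared because probes differ in brightness.

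In rodents a sleeve of heart muscle cells of atrial type runs from the left atrium along the pulmonary veins into the lung. Whole lung RNA therefore normally holds transcripts of the contractile machinery of the heart. Atrial muscle is set apart from ventricular muscle by its own myosin light chains, encoded by Myl7 and Myl4, by sarcolipin, encoded by Sln, and by atrial natriuretic peptide, encoded by Nppa. A piece of atrium left on the lung at dissection would give the same transcripts, and the arrays do not locate a transcript within the tissue. In such bulk samples fewer heart muscle cells and less RNA per cell cannot be told apart.

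The promoter windows of 3 genes are shown because these behaved differently: Nppa was lowest in transgenic lungs, Myl7 was intermediate there, and Actc1 was highest there, by 0.15 over IL4R KO. Each window runs from 250 bases before to 50 bases after the gene start in RefSeq (GRCm38.p6), on the gene's own strand. Capitals mark matches to the motifs searched. The windows are chr4:148000472-148000771 (plus strand) for Nppa, chr11:5898733-5899032 (minus strand) for Myl7 and chr2:114052826-114053125 (minus strand) for Actc1.
Nppa: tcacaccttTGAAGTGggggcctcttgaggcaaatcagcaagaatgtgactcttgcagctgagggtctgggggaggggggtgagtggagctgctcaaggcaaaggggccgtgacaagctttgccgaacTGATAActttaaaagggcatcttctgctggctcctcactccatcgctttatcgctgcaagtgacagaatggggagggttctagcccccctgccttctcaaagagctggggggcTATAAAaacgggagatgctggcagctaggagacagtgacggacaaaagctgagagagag
Myl7: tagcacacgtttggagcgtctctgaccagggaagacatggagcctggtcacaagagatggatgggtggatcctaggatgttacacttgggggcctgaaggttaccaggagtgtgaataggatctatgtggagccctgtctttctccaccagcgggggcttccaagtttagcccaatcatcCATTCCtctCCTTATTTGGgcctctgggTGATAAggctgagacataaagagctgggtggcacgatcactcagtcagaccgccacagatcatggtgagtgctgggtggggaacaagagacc
Actc1: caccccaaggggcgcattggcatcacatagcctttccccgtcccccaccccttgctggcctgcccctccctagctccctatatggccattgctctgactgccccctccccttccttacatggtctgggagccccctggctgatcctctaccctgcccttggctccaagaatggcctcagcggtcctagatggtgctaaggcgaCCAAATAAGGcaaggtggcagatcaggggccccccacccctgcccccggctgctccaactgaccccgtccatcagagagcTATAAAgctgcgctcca

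Windows were listed for 9 of the 10 genes, Sln being the exception, and 6 motifs were searched on both strands. The 9 genes had 12 windows, and a gene was counted if any of its windows held the motif. The percentages are shares of single windows, so the 2 measures are not alike. The CArG box, bound by serum response factor, was found in Myl7 and Actc1, that is 2 of the genes, and in 1.63% of all 32851 mouse windows. The GATA motif, the letters GATA with A or T before and A or G after, was found in 5 genes, Myl7, Tnnt2, Nppa, Pln and Myh6, and in 29.8% of all windows. The NKX2-5 motif TNAAGTG was found in Nppa and in 11.5% of all windows. The M-CAT motif CATTCC, bound by TEAD factors, was found in Myl7, Tnnt2 and Myh6 and in 14.7% of all windows. The motif TATAAA was found in Nppa, Pln, Myh6 and Actc1 and in 13.6% of all windows. The MEF2 site was found in 0 of the genes and in 3.19% of all windows. The TATAAA of Nppa began 9 bases before the listed start. These matches describe letters in the windows and not sites shown to be bound.

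Array medians lay between 7.08 and 7.11. Over genes, pool 1 minus pool 2 had an SD of 0.17 in transgenic, 0.34 in IL4R KO and 0.22 in WT lungs. Transcripts of hepatocytes stood out on IL4R KO pool 1 and WT pool 2: the albumin gene Alb had 5.68 and 5.93 in transgenic lungs, against 12.26 and 5.91 in IL4R KO lungs and 5.90 and 11.8 in WT lungs. The Y-linked gene Eif2s3y had 4.27 in IL4R KO pool 2, against 8.49 to 9.18 on the other 5 arrays. Kdm5d and Uty had 3.34 and 3.56 on that array, against at least 6.89 elsewhere. All 10 heart muscle genes were higher in IL4R KO pool 1 than in pool 2, by a median of 0.23. In WT lungs 8 of the 10 were higher in pool 1, by a median of 0.12, so the genes were on the high side in 1 array with liver transcripts and mostly on the low side in the other.

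All 10 genes lay above the median of all values (7.10) on all 6 arrays with their brightest probe set, which stands for the gene below. The general pattern was that transgenic lungs lay between the other groups. In 7 of 10 genes (Myl7, Myl4, Sln, Tnni3, Tnnt2, Myh6 and Mb) both IL4R KO pools were above both transgenic pools, and both transgenic pools were above both WT pools. This order without overlap was present in 5.89% of the 11860 genes tested. It requires IL4R KO above WT, the contrast by which the genes were picked, so that share is not a like baseline. Of the 3455 genes with IL4R KO above WT without overlap, 699 had the order. Both IL4R KO pools were above the other 4 arrays in 9 of the 10 genes, against 12.6% of all genes, a share that the choice of genes itself raised. Nppa was the 1 gene with both transgenic pools below the other 4 arrays, a pattern of 7.64% of all genes.

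Myl7 encodes the regulatory light chain of atrial myosin. It had 11.77 and 11.89 in transgenic lungs, against 12.22 and 12.12 in IL4R KO lungs and 11.29 and 11.29 in WT lungs. The 3 groups did not overlap. Myl7 rose in transgenic relative to WT lungs, by 0.54 (SE 0.07, 95% interval 0.36 to 0.72, 1.46-fold, limma adjusted p = 0.0205). Transgenic minus IL4R KO was -0.34 (adjusted p = 0.226), and IL4R KO minus WT was 0.88.

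Myl4 encodes the essential light chain of atrial myosin. It had 11.37 and 11.39 in transgenic lungs, against 12.04 and 11.75 in IL4R KO lungs and 10.85 and 10.96 in WT lungs, again with no overlap. Neither difference of transgenic lungs passed: it was -0.52 from IL4R KO (adjusted p = 0.221) and 0.47 from WT (adjusted p = 0.0958). A second Myl4 probe set was dim, at 6.35 to 6.57 on all arrays, and differed by at most 0.13 between groups.

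Sln encodes sarcolipin, a small membrane protein that inhibits the calcium pump of the sarcoplasmic reticulum in atrial muscle. Its values were 9.63 and 9.90 in transgenic lungs, against 10.50 and 10.29 in IL4R KO lungs and 9.62 and 9.51 in WT lungs. The transgenic pools were nearer to WT than to IL4R KO, with 1 transgenic pool barely above the higher WT pool. The difference was -0.62 from IL4R KO (adjusted p = 0.218) and 0.20 from WT (adjusted p = 0.428). Its other probe set lay at 5.20 to 5.54 on all arrays.

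Nppa encodes the precursor of atrial natriuretic peptide, the hormone that atrial muscle releases when stretched and that acts on kidney and vessels. It had 8.63 and 8.51 in transgenic lungs, against 11.29 and 10.55 in IL4R KO lungs and 10.28 and 9.96 in WT lungs. Transgenic lungs were thus lowest, below WT by more than the whole gap within any group. Nppa fell in transgenic relative to WT lungs, by 1.55 (SE 0.25, limma adjusted p = 0.0353), with an interval of -2.15 to -0.94, or 2.93-fold lower. Against IL4R KO the difference was -2.35 (5.10-fold lower), known when the genes were chosen and given without a test. The difference from WT follows from this value and that between IL4R KO and WT lungs. Its test is therefore not independent of the choice of the gene and is given as a description.

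The call of Nppa against WT depended on which arrays were used. It did not pass without transgenic pool 1 (-1.61, adjusted p = 0.173) or transgenic pool 2 (-1.49, adjusted p = 0.207), nor without WT pool 1 (-1.39, adjusted p = 0.253) or WT pool 2 (-1.71, adjusted p = 0.167). It also missed with a robust intensity trend (adjusted p = 0.0535). The direction was the same in each of these fits. The Myl7 call against WT was likewise lost without any 1 of these 4 arrays, at differences of 0.48 to 0.60, and without both arrays with liver transcripts (adjusted p = 0.0558).

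**Figure D1:**
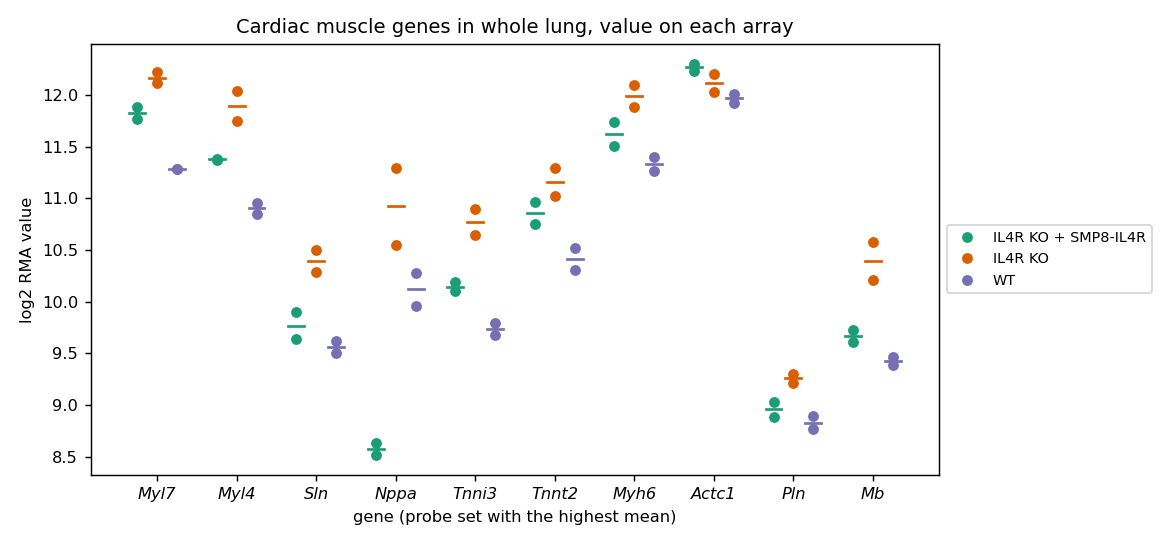
Log2 intensity (y axis) of the brightest probe set of each of the 10 heart muscle genes (x axis) on every array, with group means as lines. IL4R KO points lie highest for all genes but Actc1, and the Nppa points of transgenic lungs, at 8.63 and 8.51, lie below those of both other groups.

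Of the filament genes, Tnni3 encodes cardiac troponin I, the inhibitory subunit of the calcium switch on the thin filament. It had 10.10 and 10.19 in transgenic lungs, against 10.90 and 10.64 in IL4R KO lungs and 9.80 and 9.68 in WT lungs. The groups did not overlap, and neither difference of transgenic lungs passed: -0.63 from IL4R KO (adjusted p = 0.190) and 0.40 from WT (adjusted p = 0.120). Tnnt2 encodes cardiac troponin T, which anchors the troponin complex to tropomyosin. It had 10.75 and 10.97 in transgenic lungs, against 11.29 and 11.02 in IL4R KO lungs and 10.52 and 10.31 in WT lungs. The upper transgenic pool and the lower IL4R KO pool of Tnnt2 almost met. Its differences were -0.30 from IL4R KO (adjusted p = 0.434) and 0.45 from WT (adjusted p = 0.164), and a second bright probe set gave -0.40 and 0.33.

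Myh6 encodes alpha myosin heavy chain, the main motor of the mouse heart in atrium and ventricle. Its values were 11.51 and 11.74 in transgenic lungs, against 12.10 and 11.89 in IL4R KO lungs and 11.40 and 11.27 in WT lungs. The differences were -0.37 from IL4R KO (adjusted p = 0.320) and 0.29 from WT (adjusted p = 0.266). The size depended on the probe set. A second, dimmer Myh6 probe set had 7.18 and 7.29 in transgenic lungs, against 8.24 and 7.91 in IL4R KO lungs and 6.75 and 6.87 in WT lungs, with differences of -0.84 and 0.42. The order of the groups was the same on both. Another 2 probe sets are annotated to Myh6 and Myh7 together and gave -0.51 and -0.75 from IL4R KO and 0.35 and 0.54 from WT.

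Actc1 encodes cardiac alpha actin, which is made in embryonic skeletal and some smooth muscle as well as in heart. It had 12.23 and 12.31 in transgenic lungs, against 12.2 and 12.03 in IL4R KO lungs and 12.01 and 11.92 in WT lungs. It was the 1 gene of the 10 that was highest in transgenic lungs, though only just above the upper IL4R KO pool. The difference from IL4R KO was 0.15 (interval -0.052 to 0.35, adjusted p = 0.499) and that from WT 0.30 (adjusted p = 0.145). Actin messages of different type are alike in sequence, and whether the probe set also reads smooth muscle actin was not tested. The smooth muscle actin gene Acta2 had 13.55 and 13.58 in transgenic lungs, against 12.89 and 12.95 in IL4R KO lungs and 13.40 and 13.38 in WT lungs.

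Pln encodes phospholamban, which restrains the calcium pump in ventricle, atrium and smooth muscle. It had 8.89 and 9.03 in transgenic lungs, against 9.30 and 9.21 in IL4R KO lungs and 8.89 and 8.77 in WT lungs. Transgenic and WT values overlapped. The difference was -0.30 from IL4R KO (adjusted p = 0.282) and 0.13 from WT (adjusted p = 0.472). The other 2 probe sets gave -0.53 and -0.50 from IL4R KO, and -0.02 and 0.22 from WT, so the small difference from WT has no settled sign.

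Mb encodes myoglobin, the oxygen store of heart and red skeletal muscle. It had 9.61 and 9.72 in transgenic lungs, against 10.58 and 10.21 in IL4R KO lungs and 9.47 and 9.39 in WT lungs. The transgenic pools lay just above WT and well below IL4R KO. The difference was -0.73 from IL4R KO (adjusted p = 0.217) and 0.24 from WT (adjusted p = 0.394). A second Mb probe set stayed at 5.37 to 5.51 on all arrays.

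Between transgenic and IL4R KO lungs, 0 of the 10 genes passed in limma, against 0.101% of all genes (12 genes, 0.0759% higher and 0.0253% lower). In the fit over all probe sets 0 of the 18 passed, against 0.0155%. At an unadjusted p under 0.05 there were 8 of the 10, against 12.4% of all genes, and a limma fit with a robust intensity trend also called 0. Transgenic values were lower without overlap in 9 of the genes, against 20.6% of all genes, and higher without overlap in 1 (Actc1), against 21.1%. Their median difference was -0.44, against -0.0047 over all genes. When IL4R KO pool 2 was left out, the differences included -0.66 for Myl4, -0.76 for Tnni3, -0.91 for Mb and -2.72 for Nppa. The Nppa difference was known beforehand. With 1 array left in the IL4R KO group, calls of such a fit are not read. Without IL4R KO pool 1 the Nppa difference was -1.98. The IL4R KO arrays are shared with the contrast by which the genes were picked, so lower values relative to them are not independent of that choice.

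Between transgenic and WT lungs, 1 gene (Myl7) was called higher, against 0.691% of all genes, and 1 (Nppa) lower, against 2.15%, with 2.84% called in either direction. These were also the 2 of 18 probe sets that passed in the fit over all probe sets, against 1.04%. The values of 8 genes were higher than in WT without overlap, against 38.2% of all genes, and those of 1 were lower, against 23.6%. At an unadjusted p under 0.05 there were 7 of the 10, against 18% of all genes, and the median difference was 0.30, against 0.032 over all genes. When these 2 groups were fitted without the IL4R KO arrays, Myl4 (adjusted p = 0.0147), Tnni3 (adjusted p = 0.0284) and Actc1 (adjusted p = 0.0470) passed as well. That fit called more genes in general, 910 of 11860 against 337 in the main fit, so these added calls are not particular to the heart muscle genes. The WT arrays are likewise shared with the contrast that picked the genes, and the Nppa call is not independent of what was known beforehand.

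Between IL4R KO and WT lungs, both pools of IL4R KO were above both of WT for all 10 genes, against 29.1% of all genes, and below for 0, against 22.5%. The differences ran over 0.15 for Actc1, 0.43 for Pln and 0.66 for Myh6 to 0.97 for Mb, 0.99 for Myl4 and 1.03 for Tnni3, with a median of 0.81. These values picked the genes. The fit over all genes called 8 of the 10 higher and 0 lower, against 1.92% and 2.77% of all genes (4.7% in either direction), a count that the choice of the genes fixed and that supports nothing.

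**Figure D2:**
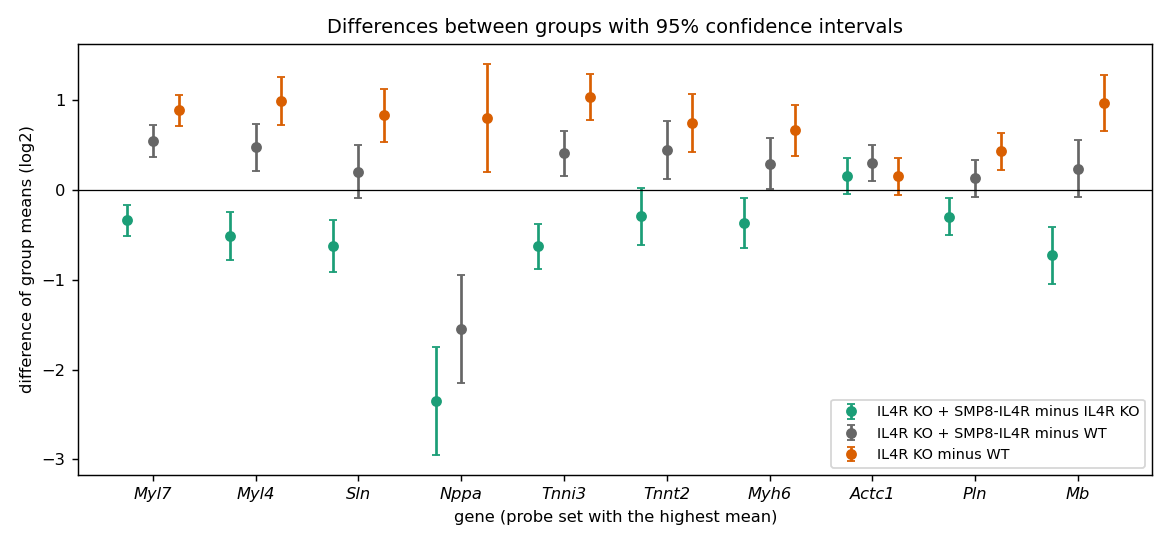
Difference of group means on the log2 scale (y axis) for each heart muscle gene (x axis), with 95% intervals from the fit over all genes, for the 3 pairs of groups. Differences of transgenic from IL4R KO lungs lie below 0 for 9 genes, and the Nppa difference from WT, -1.55, has the opposite sign to those of the other 9 genes.

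How alike the genes were over the 6 arrays was described by the correlation of each with the mean of the other 9. Pearson's r was 0.997 for Mb, 0.988 for Sln, 0.976 for Pln and 0.968 for Tnni3. It was 0.949 for Myh6, 0.918 for Myl4, 0.879 for Tnnt2 and 0.854 for Myl7. Nppa and Actc1 stood apart, at 0.409 and 0.239. The arrays are the same for all genes and fall into 3 groups, so these values describe the group pattern. The mean of the 10 genes was 10.4 and 10.6 in transgenic lungs, against 11.24 and 10.97 in IL4R KO lungs and 10.41 and 10.3 in WT lungs. Nppa minus the mean of the other 9 genes on the same array was -2.02 and -2.28 in transgenic lungs, against 0.06 and -0.47 in IL4R KO lungs and -0.15 and -0.38 in WT lungs. Relative to the other heart muscle genes Nppa was alike in IL4R KO and WT lungs and about 2 log2 units lower in transgenic lungs. This is a description, since the genes were chosen with such differences known.

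A closer look was taken at genes with such a pattern, by values and not by a list. Both transgenic pools were below all other arrays, with means more than 1 log2 unit below both other groups, for 15 genes, or 0.126% of those tested. Nppa and Nppb were among them. The other 13 were genes of liver secretion and metabolism, such as Apoa1, Ahsg, Plg and Apob, which were high on the 2 arrays with liver transcripts: IL4R KO pool 1 exceeded pool 2 by at least 1.72, and WT pool 2 exceeded pool 1 by at least 1.45. For Nppa pool 1 was the higher in IL4R KO lungs, by 0.74, as for the liver genes, and also in WT lungs, by 0.32, where the liver genes were higher in pool 2. Without IL4R KO pool 1 and WT pool 2 together, the Nppa difference from IL4R KO was -1.98.

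Nppb encodes B-type natriuretic peptide, made in atrium and, under load, in ventricle. It had 6.11 and 5.23 in transgenic lungs, against 7.48 and 7.30 in IL4R KO lungs and 6.77 and 6.64 in WT lungs. Both transgenic pools were lowest, but they differed from each other by nearly 1 log2 unit and lay below the median of all values. The differences, -1.72 from IL4R KO (SE 0.27, adjusted p = 0.184) and -1.03 from WT (adjusted p = 0.132), did not pass.

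Corin encodes the membrane protease that cuts the Nppa product to its active form in heart muscle cells. It had 6.70 and 7.06 in transgenic lungs, against 7.56 and 7.43 in IL4R KO lungs and 10.33 and 10.05 in WT lungs. Corin fell in transgenic relative to WT lungs, by 3.31 (SE 0.15, 9.94-fold lower, adjusted p = 0.000584), and in IL4R KO relative to WT lungs, by 2.70 (adjusted p = 0.000987). Both calls were kept in 6 of 6 fits that left out 1 array. Transgenic minus IL4R KO was -0.62 (adjusted p = 0.267). Both transgenic pools of Corin lay below the other 4 arrays, as for Nppa, a pattern of 7.64% of all genes. Unlike the 10 genes, Nppa among them, Corin was high in WT lungs alone.

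The receptor genes did not pass in any comparison. Npr1, the guanylyl cyclase receptor for both peptides, had 7.89 and 8.08 in transgenic lungs, against 7.93 and 8.04 in IL4R KO lungs and 8.17 and 7.99 in WT lungs. Npr3, the receptor that clears natriuretic peptides, had 10.32 and 10.58 in transgenic lungs, against 11.22 and 10.05 in IL4R KO lungs and 10.81 and 10.63 in WT lungs. All groups overlapped for Npr1. For Npr3 the IL4R KO pools spanned the values of both other groups. Both transgenic pools of Npr3 lay below both WT pools, with a difference of -0.27 (adjusted p = 0.743). The other Npr3 probe sets gave -0.35 and -0.40 from WT. Npr2, Furin and Mme did not pass either, and Nppc was below the filter. Of the 7 of 8 natriuretic pathway genes tested, 0 passed between transgenic and IL4R KO lungs, with 2 at an unadjusted p under 0.05, and Corin was the 1 called in each of the other comparisons.

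**Figure D3:**
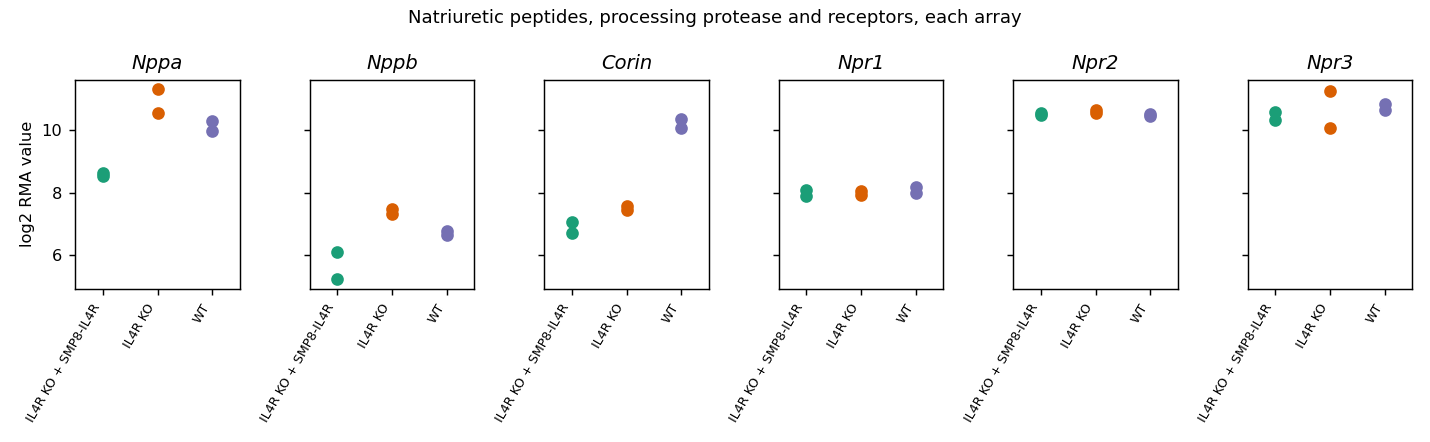
Log2 intensity (y axis) on every array for Nppa, Nppb, the processing protease Corin and the receptors Npr1, Npr2 and Npr3, by group (x axis). Nppa and Nppb are lowest in transgenic lungs, and Corin is high in WT lungs only (10.33 and 10.05). The groups overlap for Npr1. For Npr3 the 2 IL4R KO pools, at 11.22 and 10.05, span both other groups, and the transgenic pools lie below the WT pools.

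Ventricular markers were set against the atrial genes. Myl2, the regulatory light chain of ventricular myosin, lay at 4.32 to 4.65 on the 6 arrays, under the lower quartile of all values (5.30) on each. Irx4, a transcription factor of the ventricle, lay at 5.19 to 5.50, and both were below the filter. Hey2, a ventricular repressor that vessels also express, was below the filter at 5.96 and 6.01 in transgenic lungs, against 5.72 and 5.59 in IL4R KO lungs and 5.27 and 5.42 in WT lungs. Myh7, Myl3, Irx5 and Kcnip2 of the same list passed the filter. Since levels of different probe sets are not compared, these markers do not settle whether the muscle was of atrial type, nor do they place it in the pulmonary veins.

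Of the ventricular genes tested, Myl3, the essential light chain of ventricle and slow skeletal muscle, had 8.06 and 8.13 in transgenic lungs, against 8.23 and 8.27 in IL4R KO lungs and 7.92 and 7.80 in WT lungs. Its differences were -0.15 from IL4R KO (adjusted p = 0.443) and 0.24 from WT (adjusted p = 0.167). Myh7, the beta myosin heavy chain of slow skeletal and fetal heart muscle, had 10.28 and 10.24 in transgenic lungs, against 10.43 and 10.45 in IL4R KO lungs and 9.60 and 9.68 in WT lungs. Myh7 rose in transgenic relative to WT lungs, by 0.62 (SE 0.06, adjusted p = 0.00742), a call lost without any 1 transgenic or WT array. Of these 4 ventricular genes, 0 were called between transgenic and IL4R KO lungs (2 at an unadjusted p under 0.05), 1 higher between transgenic and WT, and 3 higher between IL4R KO and WT (Myh7, Myl3 and Kcnip2, of which Myl3 and Kcnip2 lost the call without any 1 transgenic or WT array).

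The mean of the 4 atrial genes (Myl7, Myl4, Sln and Nppa) minus the mean of the 7 ventricular genes was 3.21 and 3.27 in transgenic lungs, against 4.34 and 3.96 in IL4R KO lungs and 3.59 and 3.46 in WT lungs. Only its changes can be read, since it sums probe sets of unlike brightness. Transgenic lungs were 0.91 below IL4R KO (group means 3.24 and 4.15) and 0.28 below WT (3.52). Of the 4 atrial genes Nppa was lower in transgenic than in WT lungs, and the other 3 had higher values there. Nppa also had the largest difference from IL4R KO of the 4. The ventricular mean includes Myl2, Irx4 and Hey2, which were below the filter. In transgenic, IL4R KO and WT lungs it was 7.145, 7.195 and 6.945 over all 7 genes. Over the 4 tested genes it was 8.60, 8.74 and 8.30. The score is therefore not an even shift of atrial against ventricular genes.

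Of the other atrial genes, Nppb was also lowest in both transgenic pools, as given above. Of 8 with a probe set 4 were tested and 0 passed in any comparison (1 at an unadjusted p under 0.05 between transgenic and IL4R KO lungs), while Bmp10, Kcna5, Kcnj3 and Kcnj5 were below the filter. The 2 with the lowest p between transgenic and IL4R KO lungs were Nppb (-1.72) and Dkk3 (-0.18). Of the pacemaker and venous pole genes only Tbx3 was tested, with -0.09 from IL4R KO and 0.08 from WT.

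Other parts of the heart muscle program had medians of the same sign as the 10 genes. Of 15 other sarcomere genes tested, 0 passed in either comparison of transgenic lungs (9 and 6 at an unadjusted p under 0.05), with medians of -0.47 from IL4R KO and 0.22 from WT. In IL4R KO relative to WT lungs 5 rose, among them Tcap, a titin cap protein of the Z-disc (0.92), Tnnc1, cardiac troponin C (0.85), and Myom2 of the M-band (0.84). Of 8 calcium handling genes tested, 0 passed in either comparison of transgenic lungs, with medians of -0.24 and 0.16. Here 4 rose in IL4R KO relative to WT lungs, the calcium release channel gene Ryr2 (0.72), the calcium buffer genes Casq2 (0.63) and Hrc (0.50), and the sarcalumenin gene Srl (0.62).

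Muscle energy metabolism held 1 call in transgenic lungs. Fabp3, the heart fatty acid binding protein, had 9.48 and 9.48 in transgenic lungs, against 9.95 and 9.97 in IL4R KO lungs and 9.07 and 9.05 in WT lungs. Fabp3 rose in transgenic relative to WT lungs, by 0.42 (adjusted p = 0.0201), a call lost without any 1 transgenic or WT array, and its difference from IL4R KO was -0.48 (adjusted p = 0.0908). Of the 12 genes of this list, 8 rose in IL4R KO relative to WT lungs. Among them were Fabp3 (0.90), the muscle forms of cytochrome oxidase subunits Cox8b (1.06) and Cox6a2 (0.87), and the muscle enolase gene Eno3 (0.61). Medians over the list were -0.44 for transgenic minus IL4R KO, 0.36 for transgenic minus WT and 0.81 for IL4R KO minus WT.

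The transcription factors of heart muscle were nearly level. Of 8 tested 0 passed in any comparison, with medians of -0.0011, 0.13 and 0.11 in the same order, and 1, 0 and 2 were at an unadjusted p under 0.05. The lowest p between transgenic and IL4R KO lungs belonged to Ankrd1, a stress-responsive cofactor of the sarcomere (-0.41), and Mef2c (0.14). Gata4, Tbx20, Hand1 and Hand2 were below the filter. Several of the tested factors are made in other lung cells too. Of 5 junction and ion channel genes tested, 0 passed in either comparison of transgenic lungs, and Popdc2 rose in IL4R KO relative to WT lungs (0.38). Among the named genes of the heart lists that rose in IL4R KO relative to WT lungs, most lost the call without any 1 WT pool. These were Tcap, Tnnc1, Ryr2, Casq2, Hrc, Srl, Cox6a2, Eno3, Popdc2, Myl3 and Kcnip2. Of these, Srl, Popdc2, Myl3 and Kcnip2 also lost it without any 1 transgenic pool. Myom2 lost the call without WT pool 2 only. Myh7, Fabp3 and Cox8b kept the call in each fit that left out 1 array.

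Among genes outside every list with a range above 1 log2 unit, 10 of 411 were named for the highest correlation over the 6 arrays with the mean of the 10 genes. Mybphl, a myosin binding protein gene of atrial muscle, was the second, with r = 0.976. It had 7.68 and 7.75 in transgenic lungs, against 8.36 and 8.10 in IL4R KO lungs and 7.41 and 7.35 in WT lungs. Its differences were -0.51, 0.34 and 0.85, in the same order of pairs. The first was Tmem45b (r = 0.982). Then came the lipoprotein lipase inhibitor gene Angptl4 (0.944) and the adipocyte fatty acid binding protein gene Fabp4 (0.943), followed by Grhl1 (0.934), Sphk1 (0.926), Ltf (0.906), Ptpn22 (0.896), Scara5 (0.895) and Mlana (0.895).

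Markers of other tissues were measured beside these genes. The adipocyte list had the same order of groups: its mean over 5 genes was 7.15 and 7.25 in transgenic lungs, against 7.97 and 8.12 in IL4R KO lungs and 6.74 and 6.88 in WT lungs. Adipoq, the fat cell hormone adiponectin, had 8.79 and 8.75 in transgenic lungs, against 10.06 and 10.26 in IL4R KO lungs and 8.08 and 8.39 in WT lungs. Adipoq fell in transgenic relative to IL4R KO lungs, by 1.39 (adjusted p = 0.0423), as did the lipid droplet gene Cidec, by 0.94 (adjusted p = 0.0423); both calls were lost without any 1 transgenic or WT array. Cidec rose in transgenic relative to WT lungs, by 0.54 (adjusted p = 0.0350), a call lost without any 1 transgenic or WT array, and all 4 genes tested rose in IL4R KO relative to WT lungs. Of these last calls that of Retn was lost without any 1 transgenic or WT array and that of Ucp1 without WT pool 1. The part of fat tissue, or of the amount of tissue taken with the lung, in the levels of the heart muscle genes was not tested.

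The mesothelium and epicardium list had means of 9.70 and 9.69 in transgenic lungs, against 9.87 and 9.97 in IL4R KO lungs and 9.57 and 9.59 in WT lungs, the same order with a smaller spread. Of its 6 genes, Upk1b fell in transgenic relative to WT lungs, by 0.46 (adjusted p = 0.0356, lost without any 1 transgenic or WT array). Upk3b (0.74) and Msln (0.44) rose in IL4R KO relative to WT lungs, calls lost without either WT pool and, for Msln, also without either transgenic pool. Of skeletal muscle, the fast myosin genes Myh4 and Myh2 were under the lower quartile on all arrays, and of 4 of 12 genes tested Myl1, a fast myosin light chain, was the 1 called, higher in IL4R KO than in WT lungs (0.94, lost without WT pool 1). The list means were 6.20 and 6.21 in transgenic lungs, against 6.34 and 6.28 in IL4R KO lungs and 6.07 and 6.12 in WT lungs.

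Smooth muscle genes had medians of opposite sign to the heart muscle genes for transgenic minus IL4R KO (0.52) and IL4R KO minus WT (-0.43), and of the same sign for transgenic minus WT (0.17). The list mean over 11 genes was 10.8 and 10.90 in transgenic lungs, against 10.18 and 10.22 in IL4R KO lungs and 10.70 and 10.66 in WT lungs. Relative to IL4R KO lungs 4 rose in transgenic lungs: Actg2 (1.48), Synpo2 (1.31), the coactivator gene Myocd (1.13) and Acta2 (0.65). These 4 calls were lost without any 1 transgenic or WT array, and those of Myocd and Acta2 also without IL4R KO pool 1. Relative to WT only Actg2 rose (0.47, lost without any 1 transgenic or WT array), and 6 fell in IL4R KO relative to WT lungs, among them Actg2 (-1.02) and Myocd (-1.03). Pln, which smooth muscle also makes, followed the heart muscle genes and not this list.

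Genes of venous endothelium, the lining of the vessels that carry the muscle sleeve, had no common order of groups. Vwf fell in transgenic relative to WT lungs, by 0.63 (adjusted p = 0.0222), as did Selp, by 0.81 (adjusted p = 0.0153). Ephb4, named after its values were seen, had the order of the heart muscle genes without overlap, with differences of -0.11 from IL4R KO and 0.19 from WT. The Vwf call was lost without any 1 transgenic or WT array and the Selp call without transgenic pool 2 or either WT pool. Of 6 tested, 0 passed between transgenic and IL4R KO lungs, with 1 at an unadjusted p under 0.05, and both Vwf and Selp fell in IL4R KO relative to WT lungs, calls lost without either WT pool. Of 7 hepatocyte genes and 3 Y-linked genes tested, 0 passed in any comparison, and 0 of either list were at an unadjusted p under 0.05. The 5 tracheal cartilage and thyroid genes and the 5 thymus genes with a probe set were all below the filter.

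**Figure D4:**
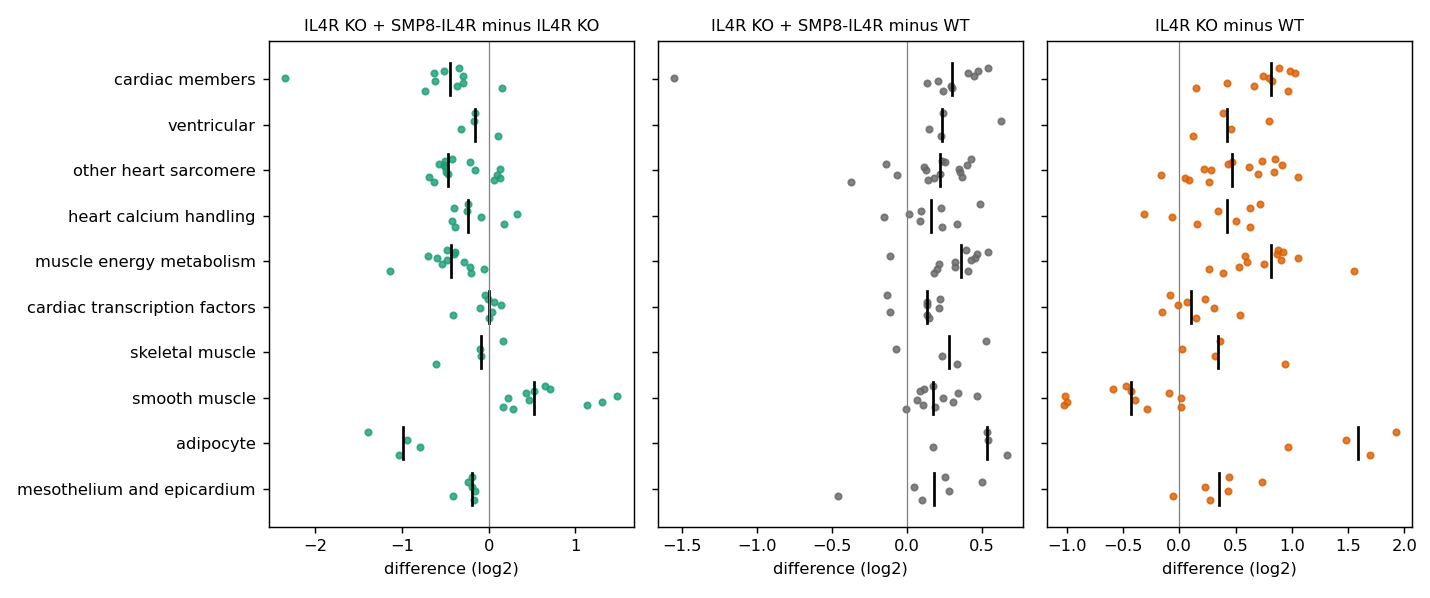
Difference of group means on the log2 scale (x axis) for each tested gene of 10 gene lists (y axis), in the 3 pairs of groups, with list medians as black lines. The medians of heart muscle genes are -0.44, 0.30 and 0.81 in the 3 panels from left to right, those of smooth muscle 0.52, 0.17 and -0.43, and those of adipocytes -0.99, 0.53 and 1.59.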

How the data were processed

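Total RNA of whole lung was hybridized to 6 Affymetrix mouse expression arrays. The deposited values are log2 intensities made by the authors with RMA, per the submitters' processing notes, which combines background correction, quantile normalization and probe summary; the version is not given in the sources used here. RMA scales all arrays to like distributions, so a change in total RNA is not seen, and it compresses small signals. Precision is limited by 2 arrays per group.

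Of 45101 probe sets, 64 controls were left out, 34945 had 1 gene symbol in the platform annotation, 932 had several and 9160 none; 34741 were matched to RefSeq by Entrez number, which changed 0 symbols. The probe set with the highest mean stood for a gene, and 11860 genes above the median of all values on at least 2 arrays were tested. One limma model (R 4.3.3, limma 3.58.1) with a mean per group was fitted over all 6 arrays and genes, with Benjamini-Hochberg adjustment and calls at 0.05 (3 residual degrees of freedom). Other probe sets came from the same model over all 45037 without a filter. The fit was tested on simulated data. Alternatives were the filter, the probe set rule, 2 normalizations, a robust trend, 2 groups alone, a block for pool number and leaving out arrays. Background correction from scanner files was not analysed here.

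The 10 genes, the 18 other lists and the tests were chosen with earlier results of these data known. All 10 genes were named. Of other lists, called genes were named, at most 4 per comparison by lowest p. Where none was called, the 2 with the lowest p between transgenic and IL4R KO lungs were named. Some markers were always named: Myl2, Myl3, Myh7, Irx4, Hey2, Npr1, Npr3, Corin, Alb, Adipoq and the Y-linked genes. Genes most like the 10 were ranked by Pearson's r. The 15 genes low in transgenic lungs were found after their values were seen.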

Additional observations from a re-analysis of the deposited data

How the results depend on the processing

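The 10 genes gave 160 alternative values in each comparison of transgenic lungs. Between transgenic and IL4R KO lungs 153 kept direction and side of the threshold and 7 newly passed. Between transgenic and WT lungs 139 kept both, 10 no longer passed, 10 newly passed and 1 reversed, namely Pln, at -0.021 with the median over its probe sets. The cause was not tested, except that fewer arrays leave 2 residual degrees of freedom.

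Of the 10 genes, those called between transgenic and IL4R KO lungs numbered 0, and 1 with the replicate block, 1 without IL4R KO pool 1 and WT pool 2 together, and 0 to 4 when 1 array was left out. Between transgenic and WT lungs 2 were called, and 1 with a robust intensity trend, 5 with the 2 groups alone, and 0 to 5 when 1 array was left out. Between IL4R KO and WT lungs, where the choice of the genes fixed the outcome, 8 were called, and 5 with the 2 groups alone, 5 with the replicate block, 5 with all probe sets tested, 4 without IL4R KO pool 1 and WT pool 2 together, and 1 to 9 when 1 array was left out.

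Over all genes, 12 were called between transgenic and IL4R KO lungs, and 5 without a filter, 7 with the median over probe sets, 7 with arrays centred, 19 with a robust trend, 0 with the 2 groups alone, 7 of all probe sets, and 0 to 176 when 1 array was left out (0 without either transgenic or either WT array, 21 without IL4R KO pool 1, 176 without pool 2). Between transgenic and WT lungs 337 were called, 910 with the 2 groups alone, and 77 to 910 when 1 array was left out. Between IL4R KO and WT lungs 557 were called, 300 with the 2 groups alone, and 110 to 1512 when 1 array was left out.

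The atrial minus ventricular difference between transgenic and IL4R KO lungs was -0.72 without IL4R KO pool 1, with or without WT pool 2, and -1.09 without pool 2. Between IL4R KO and WT lungs it was 0.63, and 0.45 with the median over probe sets, 0.44 to 0.81 when 1 array was left out and 0.38 without IL4R KO pool 1 and WT pool 2 together.

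The labels do not say that pool numbers match across groups. The correlation over genes of pool 1 minus pool 2 was 0.12 for transgenic with IL4R KO, -0.09 for transgenic with WT and -0.51 for IL4R KO with WT. The last value includes liver transcripts, which were high in IL4R KO pool 1 and WT pool 2. These values do not settle whether the numbers pair the samples. With the replicate block 10, 276 and 482 genes were called in the 3 comparisons, in the order above.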
